A study of Mus musculus with 4 samples.

Results

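Heat shock proteins and their partner chaperones were described here in GFP-positive male germ cells sorted from mouse testes at postnatal day 18. The members were the genes whose symbols follow the naming of the HSP70, HSP90, HSP60/HSP10 and small heat shock proteins, the J-domain proteins (*Dnaja*, *Dnajb*, *Dnajc*), the CCT/TRiC chaperonin (*Tcp1* and *Cct*) and the heat shock factors (*Hsf*). The rule found 89 genes among the 24411 listed for each library, of which 81 reached a mean of 1 TPM and were tested, out of 14512 genes tested in all. TPM is an abundance corrected for gene length, with an equal total in all libraries. Not every member is cytosolic, since 11 were listed here as working in or at the endoplasmic reticulum and 9 in mitochondria. These lists need not hold every such member, and counts for these compartments below refer to them. *Hspb11* (an intraflagellar transport protein), *Hspbap1* and *Hspbp1* carry a heat shock name without being heat shock chaperones, and were kept apart as name matches.

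RNA was sequenced from 2 control testes, *Zfp541*+/-, and from 2 testes labelled *Zfp541* KO, all on a C57BL/6 and CBA mixed background and all with the knock-in allele *Rec8-3xFLAG-HA-p2A-GFP*, which couples GFP to the meiotic cohesin REC8. The latter are called KO-labelled libraries below. The sort collected cells of meiotic prophase, and the comparison asked which RNAs differ at this stage when the zinc finger gene *Zfp541* is lost. Of the control testes 1 was hetero and 1 homo for the knock-in, whereas both testes labelled *Zfp541* KO were homo, and the labels do not say which control was which. Each library came from its own testis, nothing says which were littermates, and p-values measure the spread between these samples.

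Chaperones bind unfolded proteins and help them to fold, to assemble or to be degraded. HSP70 proteins hold a client under the control of J-domain proteins, which start their ATPase cycle, and HSP110 proteins, which release the nucleotide. HSP90 acts later on signalling proteins, the CCT/TRiC ring folds actin and tubulin, and small heat shock proteins keep clients soluble. Heat shock factors switch on many of these genes by binding inverted repeats of GAA, the heat shock element. Male germ cells are known for forms of their own. HSPA2 is an HSP70 of spermatocytes that is needed to take apart the synaptonemal complex and to activate CDK1. HSPA4L is an HSP110 abundant in testis, HSPA1L a constitutive HSP70 of the testis, and HSF2 and HSF5 are heat shock factors of spermatocytes.

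*Zfp541* itself measured 112 TPM in control 1 and 72.2 TPM in control 2, against 136 and 151 TPM under the KO label, so the RNA of the targeted gene was not lower with the label, and every direction below follows the label alone. The KO allele was made by deleting a run of exons that begins at the first, and TPM per gene cannot separate reads within the deletion from reads outside it. TPM keeps no depth. The number of genes at 0 TPM was 6563 and 7646 in the controls and 6731 and 6518 in the KO-labelled libraries. The controls also differed in other cells: the 6 Leydig cell markers summed to 2910 TPM in control 1 and 18.0 TPM in control 2, against 331 and 504 TPM in the KO-labelled libraries, and the 8 markers of macrophages and red blood cells to 2109 and 40.3 TPM against 1715 and 1278 TPM. The red blood cell genes in that sum were low and did not share its order. *Hba-a1* stood at 62.05 and 17.11 TPM in the controls and at 25.77 and 0 TPM in the KO-labelled libraries. In the same order *Hbb-bs* stood at 0, 0, 0 and 22.35 TPM and *Alas2* at 2.02, 1.55, 1.96 and 4.88 TPM. The 9 markers of leptotene and zygotene summed to 1998 and 2516 TPM in the control libraries and 4016 and 4139 TPM in the KO-labelled libraries. The 10 pachytene markers summed to 8032 and 4306 TPM in the control libraries and 2207 and 3209 TPM in the KO-labelled libraries. All 10 were lower in control 2 than in control 1. The 8 spermatogonial markers summed to 324 and 980 TPM in the control libraries and 674 and 485 TPM in the KO-labelled libraries. *Rec8*, the gene tied to the GFP of the sort, stood at 7.05 and 27.85 TPM in the controls. It stood at 27.66 and 19.41 TPM in the KO-labelled libraries. In sorted cells measured as a bulk, fewer cells of a stage and less RNA per cell cannot be told apart.

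Chaperone RNA was abundant in these cells. The members together made up 2.02% and 1.85% of all TPM in the control libraries and 2.17% and 2.16% in the KO-labelled libraries. *Hsp90aa1*, the inducible cytosolic HSP90, had the highest mean level (2846 TPM), followed by *Hspa5* (1811 TPM), *Hspa8* (1231 TPM), *Tcp1* (1204 TPM), *Hsp90b1* (1129 TPM), *Hsp90ab1* (1127 TPM) and *Hspa2* (1083 TPM). At the other end *Dnajc5b*, a cysteine string protein, was listed at 0 TPM in all 4 libraries. The 8 members under the limit of 1 TPM were *Cct8l1*, *Dnajb8*, *Dnajc22*, *Dnajc5b*, *Dnajc6*, *Hsf3*, *Hsf4* and *Hspb3*, and the highest single value among them was 1.12 TPM, for *Hsf4* in KO-labelled library 1. *Hsf3* stood at 0.13 and 0.15 TPM in the control libraries and at 1.04 and 0.75 TPM in the KO-labelled libraries, levels too low to be tested.

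No member passed an FDR of 0.05 in limma on log2(TPM + 1), as no gene did (0% of the 14512 tested in either direction). The lowest adjusted p among members was 0.310, shared by *Hspb9* and *Dnajb3*. At an unadjusted p under 0.05 from limma, 3 members were higher (3.70%), against 10.7% of all genes, and 7 were lower (8.64%), against 3.73% of all genes. The 7 lower were *Hspb9*, *Dnajb3*, *Dnajb13*, *Dnajb2*, *Dnajc5g*, *Dnajc4* and *Dnajc15*, and the 3 higher were *Dnajc13*, *Cct8* and *Hspd1*. Both KO-labelled libraries lay above both controls for 30 members (37.0%), beside 38.6% of all genes, and below both for 16 (19.8%), beside 12.1% of all genes. At least 2-fold higher, on the log2(TPM + 1) scale and without a test, was 1 member (1.23%), beside 8.99% of all genes. At least 2-fold lower were 8 members (9.88%), beside 5.22% of all genes.

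The median log2 fold change was 0.20 over the members and 0.28 over all genes tested, so that a member at 0 lay below the middle of the transcriptome. With median-ratio scaling the middle of all genes came to -0.015 and that of the members to -0.12, with 13 members above both controls (22.6% of all genes) and 29 below both (22.8% of all genes). Quantile normalization moved them to 0.077 and 0.072, with 24 members above (27.8% of all genes) and 22 below (19.4% of all genes). By class, the medians were 0.42 for the 4 class A J-domain genes, 0.41 for the 3 HSP90 genes, 0.35 for the 3 heat shock factors tested, 0.28 for the 25 class C J-domain genes, 0.24 for the 14 HSP70 and HSP110 genes and 0.22 for *Hspd1* and *Hspe1* together. They were -0.026 for the 12 class B J-domain genes, -0.045 for the 6 small heat shock proteins and -0.16 for the 9 chaperonin genes. After median-ratio scaling the class C (-0.047), HSP70 and HSP110 (-0.069) and *Hspd1* and *Hspe1* (-0.11) medians changed sign, and the other classes kept theirs. Without control 1 the class B (0.21) and small heat shock protein (0.24) medians were above 0. Class medians over a few genes are descriptions and were not tested.

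**Figure D1:**
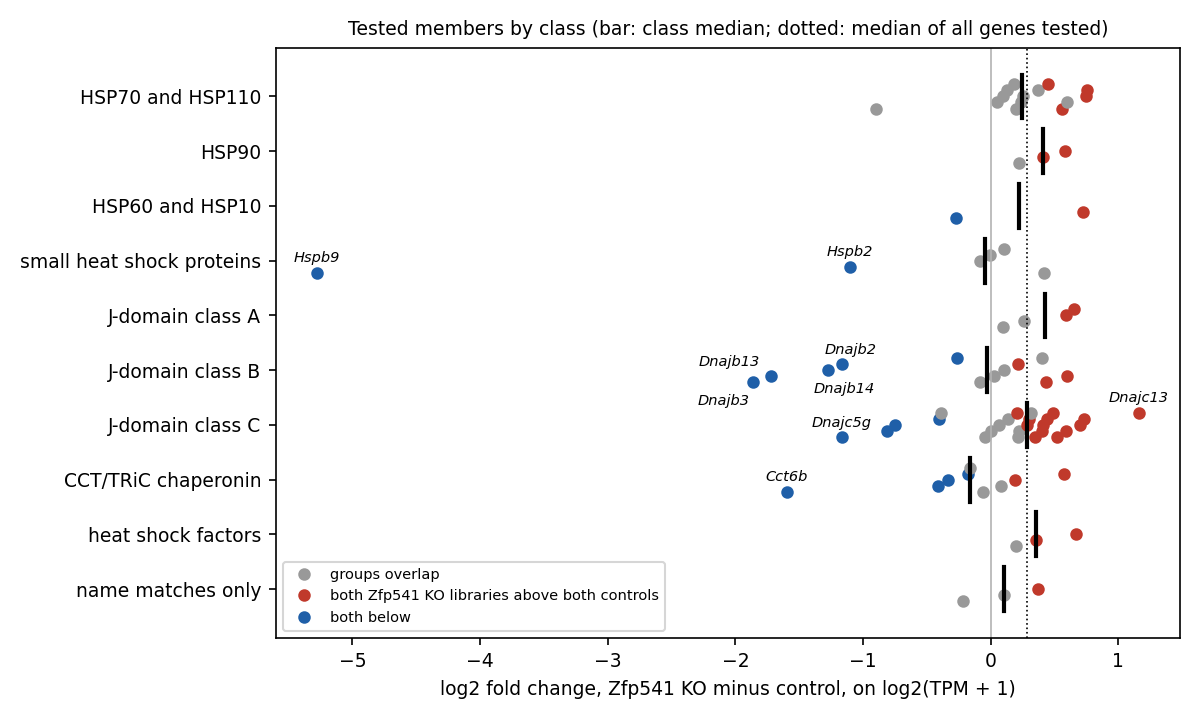
Log2 fold change on log2(TPM + 1) of the 81 tested members (x axis, KO-labelled libraries minus controls) by class (rows), 1 point a gene, coloured by whether the groups overlap. The black bar is the class median and the dotted line the median of all genes tested (0.28). Most points sit near the dotted line, with a tail of 8 genes at -1 or below that is led by Hspb9 at -5.28, and 1 gene, Dnajc13, above 1.

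The germ cell HSP70 *Hspa2* did not follow the label. It stood at 1346 and 761 TPM in the control libraries and at 1000 and 1223 TPM in KO-labelled libraries 1 and 2. The controls enclosed both other libraries, and the log2 fold change was 0.13 (SE 0.38, adjusted p = 0.896 from limma). The sign of this value turned with median-ratio scaling (-0.21) and with the library left out, from -0.28 without control 2 to 0.54 without control 1. *Hspa2* lies on mouse chr12:76404176-76406938 (GRCm38, forward strand), and its longest coding transcript has 1 exon. None of the 75-base stretches of that transcript, the length of the reads, occurs in another annotated gene, so its level does not rest on reads shared with other HSP70 genes. It stood 426, 231, 249 and 400 times above *Hspa1l* in control 1, control 2 and KO-labelled libraries 1 and 2.

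*Hspa4l* stood at 474 and 235 TPM in the control libraries and at 468 and 548 TPM in the KO-labelled libraries. Control 2 was the low library and control 1 lay between the other two, with a log2 fold change of 0.60 (SE 0.40, adjusted p = 0.524 from limma) that was 0.096 without control 2 and -0.050 after correction for transcript length. Its widely expressed counterpart *Hspa4* stood at 216 and 151 TPM in the control libraries and at 187 and 187 TPM in the KO-labelled libraries, again with the controls on either side. *Hspa1l* was low throughout, at 3.16 and 3.29 TPM in the control libraries and at 4.02 and 3.06 TPM in the KO-labelled libraries. The exons of an antisense gene, *Gm10501*, cover 71.9% of its longest coding transcript, and with a library kit that does not mark strand the reads of the pair cannot be told apart.

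*Hsf2* stood at 21.2 and 30.4 TPM in the control libraries and at 43.9 and 38.0 TPM in the KO-labelled libraries. Both of the latter lay above both controls, with a log2 fold change of 0.66 (SE 0.28, adjusted p = 0.378 from limma). The groups overlapped after median-ratio scaling (0.34) and after quantile normalization (0.43), in which no heat shock factor was above both controls. *Hsf1*, the main factor of the heat response, stood at 51.8 and 60.7 TPM in the control libraries and at 69.2 and 74.8 TPM in the KO-labelled libraries (log2 fold change 0.35, SE 0.20, adjusted p = 0.462 from limma). *Hsf5* was the most abundant of the 3 and behaved like *Hspa2*, at 134 and 67.6 TPM in the control libraries and at 95.3 and 125 TPM in the KO-labelled libraries, so that the controls enclosed the others. The log2 fold changes of the 3 factors thus ranged from 0.20 to 0.66, on either side of the median of all genes.

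Other germ cell forms, grouped here by their direction in these data, lay lower in the KO-labelled libraries: *Hspb9*, *Dnajb3*, *Dnajb13*, *Cct6b* and *Dnajc5g*. *Hspb9*, a small heat shock protein of the testis, had by far the largest difference of any member. It stood at 429 and 144 TPM in the control libraries and at 3.36 and 8.50 TPM in the KO-labelled libraries. Both of the latter were far below both controls, 48.3-fold by the group means, with a log2 fold change of -5.28 (SE 0.69, adjusted p = 0.310 from limma). The value ranged from -6.06 to -4.49 when each library was left out. *Hspb9* has 1 exon, at chr11:100713850-100714575 on the forward strand, overlaps no exon of another gene and shares no 75-base stretch with one.

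*Dnajb3*, a class B J-domain gene of spermatogenic cells, stood at 303 and 154 TPM in the control libraries and at 50.2 and 68.3 TPM in the KO-labelled libraries. Both controls were above both of the others, and the log2 fold change was -1.86 (SE 0.40, adjusted p = 0.310 from limma), with a range of -2.35 to -1.38 when each library was left out. It too has 1 exon, at chr1:88204732-88205782 on the reverse strand. The reference bases upstream of these most different members are shown beside those of *Hspa1a*, the classic heat-inducible HSP70, as an example with a heat shock element. The element was searched on both strands as GAANNTTC or TTCNNGAA (a pair of inverted units) and as GAANNTTCNNGAA or TTCNNGAANNTTC (a further unit, so that each such match also holds a shorter one), with the CCAAT box (CCAAT or ATTGG) as a common promoter motif. Sequences are from RefSeq promoters on GRCm38.p6, cut to the bases before the start that no annotated exon covers, 5′ to 3′ on the strand of the gene, with matches in capitals:
Hspb9, chr11:100713679-100713849, forward strand: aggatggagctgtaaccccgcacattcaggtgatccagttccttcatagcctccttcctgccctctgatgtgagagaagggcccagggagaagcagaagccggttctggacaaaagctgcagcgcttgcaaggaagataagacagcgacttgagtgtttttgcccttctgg
Dnajb3, chr1:88205783-88205998, reverse strand: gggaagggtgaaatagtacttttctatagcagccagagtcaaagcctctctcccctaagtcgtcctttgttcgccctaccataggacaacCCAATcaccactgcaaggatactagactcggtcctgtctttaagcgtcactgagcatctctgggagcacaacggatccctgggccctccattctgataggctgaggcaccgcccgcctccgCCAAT
Hspa1a, chr17:34972157-34972406, reverse strand: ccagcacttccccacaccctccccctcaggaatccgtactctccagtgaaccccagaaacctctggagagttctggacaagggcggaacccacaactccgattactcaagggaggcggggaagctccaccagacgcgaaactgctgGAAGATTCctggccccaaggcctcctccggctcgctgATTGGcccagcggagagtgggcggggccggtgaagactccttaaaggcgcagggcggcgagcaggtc

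The *Hspb9* stretch held none of the motifs, that of *Dnajb3* held 2 CCAAT boxes and no element, and that of *Hspa1a* held 1 shorter element and 1 CCAAT box. Over whole windows of 300 bases, 21 of the 72 members found in the table (29.2%) had a shorter element, beside 17.0% of the 27025 genes in it, and 4 had the longer one (5.56%), beside 0.662% of genes. Those 4 were *Dnajb6*, *Hspd1*, *Hspe1* and *Hsph1*. The shorter element was in 3 of 13 members that lay below both controls, in 7 of 23 that lay above both and in 9 of 31 whose groups overlapped. The germ cell form *Dnajc5g* was among those 3, so lower germ cell forms did not all lack the element. A match is only a run of letters, and binding of a factor was not measured here.

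*Dnajb13*, a J-domain protein of the sperm flagellum, stood at 62.1 and 27.7 TPM in the control libraries and at 9.43 and 14.9 TPM in the KO-labelled libraries. The groups were apart, with a log2 fold change of -1.72 (SE 0.50, adjusted p = 0.319 from limma). Exons of *Ucp2* on the other strand cover 11.8% of its longest coding transcript. *Dnajc5g*, a testis form of the cysteine string protein, stood at 122 and 58.7 TPM in the control libraries and at 32.8 and 42.2 TPM in the KO-labelled libraries (log2 fold change -1.17, SE 0.42, adjusted p = 0.340 from limma), and this value was -0.64 without control 1 and -1.69 without control 2. *Cct6b*, the testis form of a chaperonin subunit, stood at 166 and 49.6 TPM in the control libraries and at 21.5 and 40.0 TPM in the KO-labelled libraries. Control 1 stood alone for *Cct6b*, and the log2 fold change of -1.60 (SE 0.68, adjusted p = 0.381 from limma) was -0.73 without it.

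Of the remaining germ cell forms, *Dnajb7* was near the limit of detection, at 0.87 and 0.38 TPM in the control libraries and at 1.58 and 1.29 TPM in the KO-labelled libraries. It reached the filter of 1 TPM only through the KO-labelled libraries (mean 1.435 TPM, against 0.625 TPM in the controls). Its direction thus follows in part from the filter. *Dnajb8* was listed above 0 only in KO-labelled library 1, at 0.24 TPM, and *Cct8l1* was between 0.18 and 0.26 TPM in all 4. In all, 11 of the 14 germ cell forms were tested, from a list chosen with earlier results of these data known. Of these, 5 lay below both controls (12.1% of all genes), 2 (*Hsf2* and *Dnajb7*) above both (38.6% of all genes), and in 4 (*Hspa2*, *Hspa4l*, *Hspa1l* and *Hsf5*) the groups overlapped, with a median log2 fold change of 0.096 against 0.28 over all genes.

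**Figure D2:**
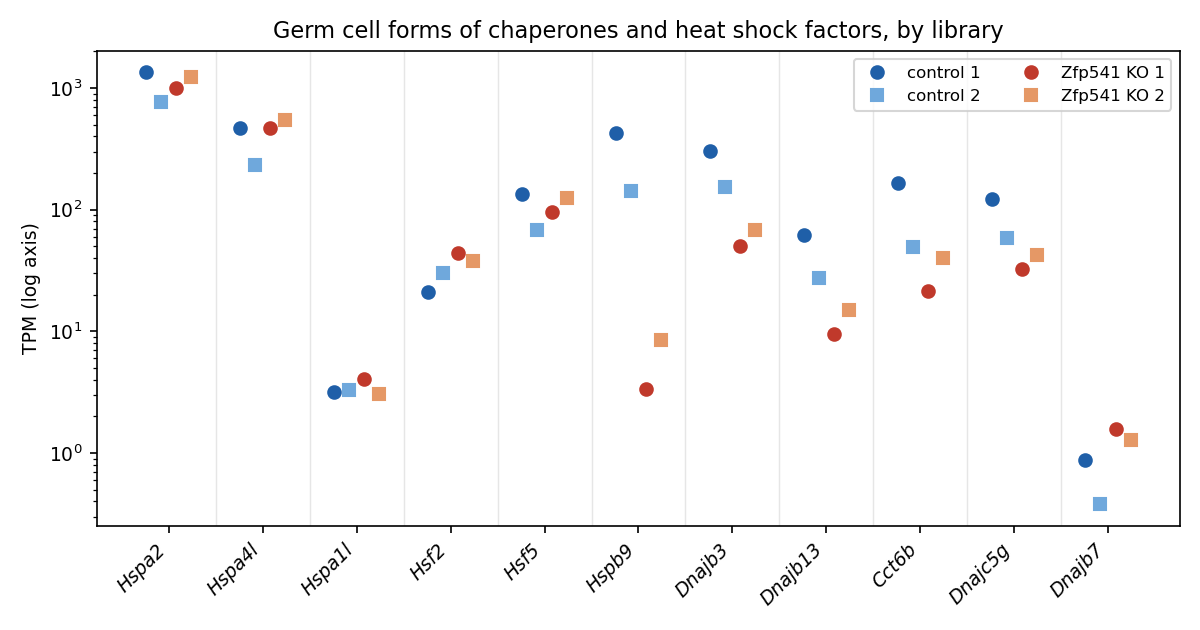
TPM (log axis) of the 11 tested germ cell forms (x axis) in each of the 4 libraries. Blue points are the controls and red and orange points the KO-labelled libraries. For Hspb9, Dnajb3, Dnajb13, Cct6b and Dnajc5g the red and orange points lie under both blue points, whereas for Hspa2 and Hsf5 they lie between them.

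Another 3 members with no germ cell name were at least 2-fold lower. *Dnajb2*, a J-domain protein that hands clients to the proteasome, stood at 139 and 69.7 TPM in the control libraries and at 38.9 and 48.2 TPM in the KO-labelled libraries (log2 fold change -1.17, SE 0.39, adjusted p = 0.328 from limma). Its log2 fold change was -0.67 without control 1. *Dnajb14*, a J-domain protein of the endoplasmic reticulum membrane, stood at 51.5 and 15.2 TPM in the control libraries and at 10.6 and 11.5 TPM in the KO-labelled libraries. Here again control 1 was the high library, and the log2 fold change of -1.28 (SE 0.64, adjusted p = 0.419 from limma) was -0.43 without it. *Hspb2*, a small heat shock protein known from muscle, stood at 3.86 and 1.58 TPM in the control libraries and at 0.29 and 1.11 TPM in the KO-labelled libraries, and exons of *Cryab* on the other strand cover 32.6% of its transcript. Its log2 fold change of -1.10 was -0.65 without control 1. *Hspb2* reached the filter of 1 TPM only through the controls (mean 2.72 TPM, against 0.70 TPM in the KO-labelled libraries). Its direction thus follows in part from the filter.

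All 8 members that were at least 2-fold lower were also lower in control 2 than in control 1, with a median difference between the controls of -1.09 on the log2 scale, whereas over the 81 tested members 50 were lower in control 2 and the median was -0.34. Over all genes tested 9581 were lower in control 2, with a median of -0.36. The pachytene markers had the same order, with a median log2 fold change of -0.97 between groups, 5 of 10 below both controls, none above, and a median of -1.37 between the controls. The part of cell stage in the lower chaperone genes was not tested. The difference between groups was larger than that between the controls for *Hspb9* (-1.57 between the controls), *Dnajb3* (-0.97), *Dnajb13* (-1.14), *Dnajb2* (-0.98), *Dnajc5g* (-1.05) and *Hspb2* (-0.91), and for *Cct6b* and *Dnajb14* it was smaller (-1.72 and -1.69).

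**Figure D3:**
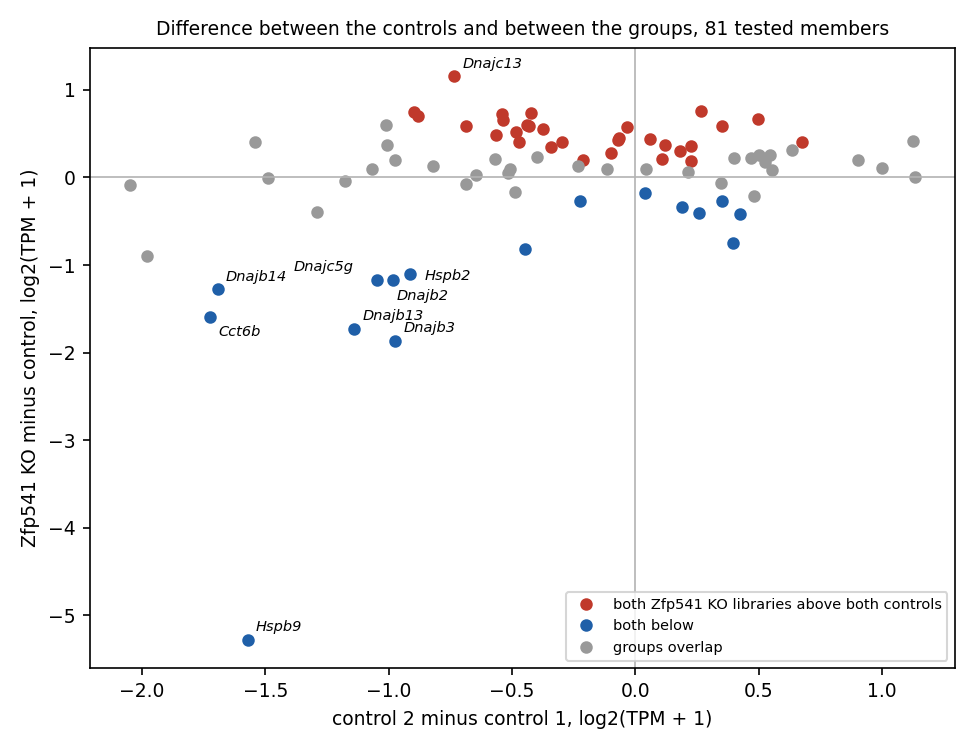
For each of the 81 tested members, control 2 minus control 1 (x axis) against the KO-labelled libraries minus the controls (y axis), both on log2(TPM + 1) and coloured by whether the groups overlap. The 8 named genes in the lower left are all lower in control 2 than in control 1, and the y axis is reckoned from the mean of both controls, so the axes share the control values.

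Genes known to be induced by heat lay in both directions. The list held 12 such members, and the constitutive *Hspa8* was counted among them. Of the 12, 5 lay above both controls (38.6% of all genes), 2 below both (12.1% of all genes) and in 5 the groups overlapped. Their median log2 fold change was 0.41, and 0.074 after median-ratio scaling. *Hspa1a* stood at 2.77 and 2.60 TPM in the control libraries and at 5.34 and 3.00 TPM in the KO-labelled libraries, and *Hspa1b* at 4.04 and 6.13 TPM against 6.78 and 5.56 TPM. These inducible HSP70 genes were thus at single-digit TPM in every library, beside 818 TPM or more of the constitutive *Hspa8*. They are a near-identical pair, with 61.7% of the 75-base stretches of *Hspa1a* and 55.8% of those of *Hspa1b* found in another gene and promoter windows that differ at 4 of 300 bases, so the split of reads between them is uncertain.

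*Hspa8* itself stood at 818 and 1529 TPM in the control libraries and at 1378 and 1198 TPM in the KO-labelled libraries, so the controls lay on either side of both. Its log2 fold change of 0.20 (SE 0.40, adjusted p = 0.834 from limma) went from -0.25 without control 1 to 0.65 without control 2, and 68.6% of its 75-base stretches occur in other annotated genes, mostly named as predicted ones. *Hsp90aa1* stood at 2863 and 2066 TPM in the control libraries and at 3127 and 3327 TPM in the KO-labelled libraries, above both controls (log2 fold change 0.41, SE 0.38, adjusted p = 0.631 from limma). Of the 75-base stretches of *Hsp90aa1*, 53.1% occur in other annotated genes. The constitutive *Hsp90ab1* stood at 899 and 1188 TPM in the control libraries and at 1288 and 1133 TPM in the KO-labelled libraries. *Hsph1*, the inducible HSP110, stood at 56.4 and 43.3 TPM in the control libraries and at 74.4 and 71.9 TPM in the KO-labelled libraries (log2 fold change 0.56, SE 0.22, adjusted p = 0.363 from limma).

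*Dnaja1*, an HSP70 partner required in spermatogenesis, stood at 193 and 133 TPM in the control libraries and at 248 and 257 TPM in the KO-labelled libraries (log2 fold change 0.65, SE 0.25, adjusted p = 0.353 from limma). *Dnajb1*, the most heat-responsive J-domain gene, went the other way, at 137 and 117 TPM in the control libraries and at 104 and 107 TPM in the KO-labelled libraries. Its difference was small (log2 fold change -0.26, SE 0.19, adjusted p = 0.542 from limma). *Hspb1*, *Hspb8* and *Dnajb4* overlapped between groups, and the controls alone ranged from 42.7 to 94.4 TPM for *Hspb1*, from 1.01 to 7.32 TPM for *Hspb8* and from 22.3 to 66.8 TPM for *Dnajb4*.

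Of the 11 members in the endoplasmic reticulum 8 were above both controls (38.6% of all genes), 1 (*Dnajb14*) was below both (12.1% of all genes) and in 2 the groups overlapped, with a median log2 fold change of 0.49 against 0.28 over all genes. Their TPM summed to 2917 and 2772 in the controls and to 4572 and 4129 in the KO-labelled libraries. The median was 0.15 after median-ratio scaling, with 5 members above both controls (22.6% of all genes) and 3 below (22.8%), and 0.32 after quantile normalization, with 8 above (27.8% of all genes) and 2 below (19.4%). None of these members passed the FDR.

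*Hspa5*, the HSP70 of this compartment (BiP), was the largest single part of that sum in every library. It stood at 1223 and 1472 TPM in the control libraries and at 2444 and 2108 TPM in the KO-labelled libraries. Both of the latter were above both controls, and the log2 fold change was 0.76 (SE 0.31, adjusted p = 0.367 from limma), or 0.42 after median-ratio scaling. *Hsp90b1*, the HSP90 of the compartment, stood at 1044 and 775 TPM in the control libraries and at 1395 and 1303 TPM in the KO-labelled libraries (log2 fold change 0.58, SE 0.29, adjusted p = 0.415 from limma). *Hspa13*, a microsomal HSP70, stood at 26.4 and 13.7 TPM in the control libraries and at 32.2 and 32.9 TPM in the KO-labelled libraries, and *Dnajc1*, a J-domain protein of the membrane, at 24.8 and 13.0 TPM against 28.7 and 31.3 TPM. The others above both controls were the BiP partners *Dnajc3*, *Dnajc10*, *Dnajb9* and *Dnajb11*, with log2 fold changes of 0.59, 0.49, 0.43 and 0.21.

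Of the 9 mitochondrial members 2 were above both controls (38.6% of all genes), 3 below both (12.1% of all genes) and in 4 the groups overlapped (median log2 fold change 0.0013). *Hspd1* (HSP60) and its lid *Hspe1* (HSP10), which form one folding chamber, lay apart in opposite directions. *Hspd1* stood at 232 and 159 TPM in the control libraries and at 336 and 300 TPM in the KO-labelled libraries (log2 fold change 0.72, SE 0.26, adjusted p = 0.340 from limma). *Hspe1* stood at 234 and 299 TPM in the control libraries and at 227 and 210 TPM in the KO-labelled libraries (log2 fold change -0.27, SE 0.21, adjusted p = 0.577 from limma). The ratio of *Hspd1* to *Hspe1* was 0.990 and 0.533 in the controls and 1.48 and 1.43 in the KO-labelled libraries, a contrast within each library that no scaling of a library changes. The pair was named after its values were seen. Their longest transcripts differ in length (2423 and 774 bases), and a correction for transcript length can change this contrast. After that correction *Hspd1* was at 0.61 and above both controls, and *Hspe1* was no longer below both. The genes lie head to head on chromosome 1, where exons of *Hspd1* cover 14.5% of the *Hspe1* transcript, and 33.7% and 29.1% of their 75-base stretches occur in other annotated genes. A promoter window of each holds one heat shock element of 4 alternating units, which lies upstream of the *Hspe1* start and within the annotated span of *Hspd1* (30 bases, forward strand, units and spacers in capitals):
Hspe1 and Hspd1, chr1:55088053-55088082: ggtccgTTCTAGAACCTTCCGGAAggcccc

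*Dnajc15*, a J-domain protein of the inner mitochondrial membrane and the most abundant class C gene, stood at 338 and 445 TPM in the control libraries and at 216 and 244 TPM in the KO-labelled libraries. It lay below both controls with a log2 fold change of -0.75 (SE 0.23, adjusted p = 0.320 from limma), and unlike the 8 genes above it was higher in control 2 than in control 1. *Hspa9*, the HSP70 of the matrix, stood at 353 and 268 TPM in the control libraries and at 375 and 350 TPM in the KO-labelled libraries, so the groups overlapped.

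The CCT/TRiC ring is built from 8 different subunits, one at each place, and its genes were all abundant in these cells. *Tcp1* had the highest and *Cct6a* the lowest level of the 8 standard subunits in all 4 libraries. The highest was 5.15 and 3.15 times the lowest in the controls and 2.95 and 3.37 times in the KO-labelled libraries. The 8 summed to 4860 and 5136 TPM in the control libraries and to 4729 and 4850 TPM in the KO-labelled libraries. Both of the latter sums were below both controls, but the group means differed by less than the controls did from each other. Within this sum, *Cct8* stood at 466 and 454 TPM in the control libraries and at 682 and 691 TPM in the KO-labelled libraries (log2 fold change 0.58, SE 0.20, adjusted p = 0.335 from limma). *Cct5* stood at 468 and 629 TPM in the control libraries and at 413 and 400 TPM in the KO-labelled libraries (log2 fold change -0.42, SE 0.24, adjusted p = 0.476 from limma). The ratio of *Cct8* to *Cct5* was 0.994 and 0.722 in the controls and 1.65 and 1.73 in the KO-labelled libraries, again a pair named after its values were seen. *Cct7* and *Cct4* also lay below both controls and *Cct6a* above both, whereas *Tcp1*, *Cct2* and *Cct3* overlapped.

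**Figure D4:**
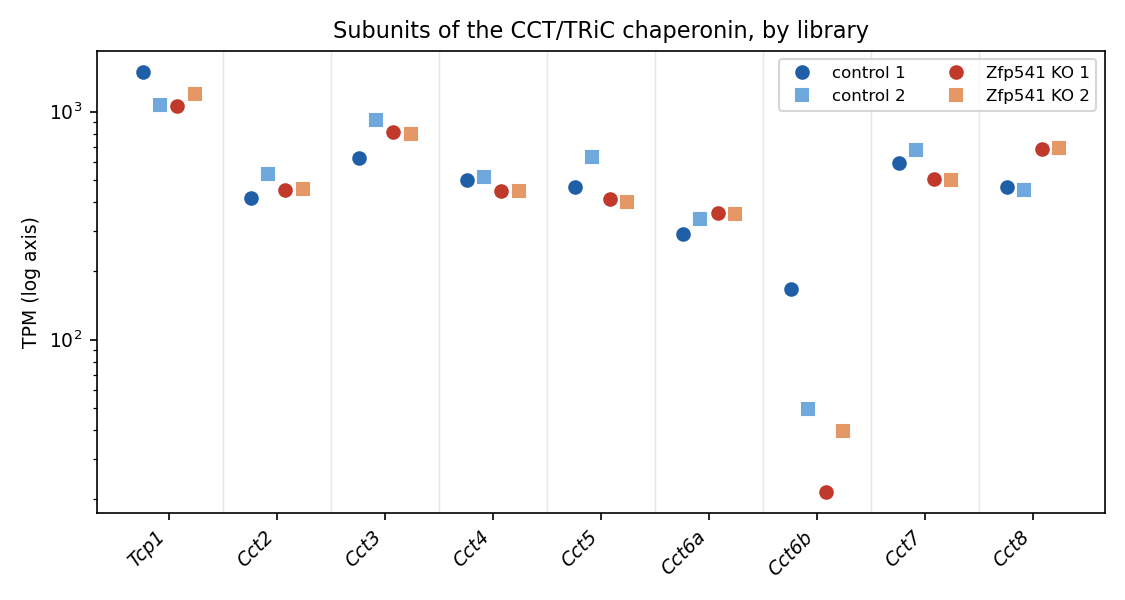
TPM (log axis) of the 9 tested chaperonin genes (x axis) in each of the 4 libraries, controls in blue and KO-labelled libraries in red and orange. The 8 standard subunits stay between 290 and 1494 TPM, Cct8 is the one whose red and orange points are clearly above the blue ones, and the testis form Cct6b is the lowest and most variable.

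Class C J-domain genes, which serve many compartments, were the largest class, and 13 of 25 tested lay above both controls (38.6% of all genes) and 4 below both (12.1% of all genes). *Dnajc13*, a J-domain protein of endosomes, was the 1 member at least 2-fold higher. It stood at 48.1 and 28.5 TPM in the control libraries and at 81.3 and 86.9 TPM in the KO-labelled libraries. Both of the latter exceeded both controls, with a log2 fold change of 1.16 (SE 0.31, adjusted p = 0.315 from limma) that was 0.56 after correction for transcript length, *Dnajc13* having a transcript of 8012 bases. *Dnajc16* stood at 22.9 and 16.9 TPM in the control libraries and at 33.3 and 33.3 TPM in the KO-labelled libraries (log2 fold change 0.73, SE 0.27, adjusted p = 0.348 from limma). *Dnajc4* lay lower, at 84.9 and 62.0 TPM in the control libraries and at 36.9 and 45.3 TPM in the KO-labelled libraries (log2 fold change -0.81, SE 0.26, adjusted p = 0.322 from limma).

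Transcript length went with the direction of the members. Those below both controls had a median longest transcript of 1862 bases, those above both 3014 bases and the others 2520 bases. When each library was corrected for a trend with length, a step chosen after seeing the data, 19 members lay above both controls (24.5% of all genes) and 22 below both (18.5% of all genes), and the median of the members was -0.022 against 0.066 over all genes. The part of length in the differences was not tested further. Of the 8 members at least 2-fold lower, *Hspb9* (-5.00), *Dnajb14* (-1.93), *Dnajb13* (-1.87), *Dnajb3* (-1.68), *Cct6b* (-1.61), *Dnajb2* (-1.38) and *Dnajc5g* (-1.12) were still so on the log2 scale with this correction, whereas *Hspb2* was at -0.83.

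Ratios within a library do not depend on its scaling, and 7 were compared between groups. *Cct6b* to *Cct6a* was 0.573 and 0.146 in the controls and 0.0600 and 0.113 in the KO-labelled libraries, a log2 difference of -1.82 with the latter below both controls. *Hspa4l* to *Hspa4* was 2.19 and 1.56 in the controls and 2.51 and 2.92 in the KO-labelled libraries, a log2 difference of 0.55 with the latter above both. Their longest transcripts differ in length (9479 and 4618 bases), and a ratio can still carry a trend with length. The log2 fold change of *Hspa4l* was -0.050 after correction for it. *Hsf2* to *Hsf1* was 0.410 and 0.501 in the controls and 0.635 and 0.508 in the KO-labelled libraries, a log2 difference of 0.33, and the lowest of the latter exceeded the higher control only narrowly. Each of these had an exact two-sided permutation p = 0.333, adjusted to 0.778 over the 7 ratios, and 0.333 is the smallest p that 2 against 2 libraries can give. For *Hspa2* to *Hspa8* (1.65 and 0.498 in the controls, 0.726 and 1.02 in the KO-labelled libraries), *Hspa1l* to *Hspa8*, *Hsf5* to *Hsf1* and *Hsp90aa1* to *Hsp90ab1* the groups overlapped, with an exact permutation p = 1.

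**Figure D5:**
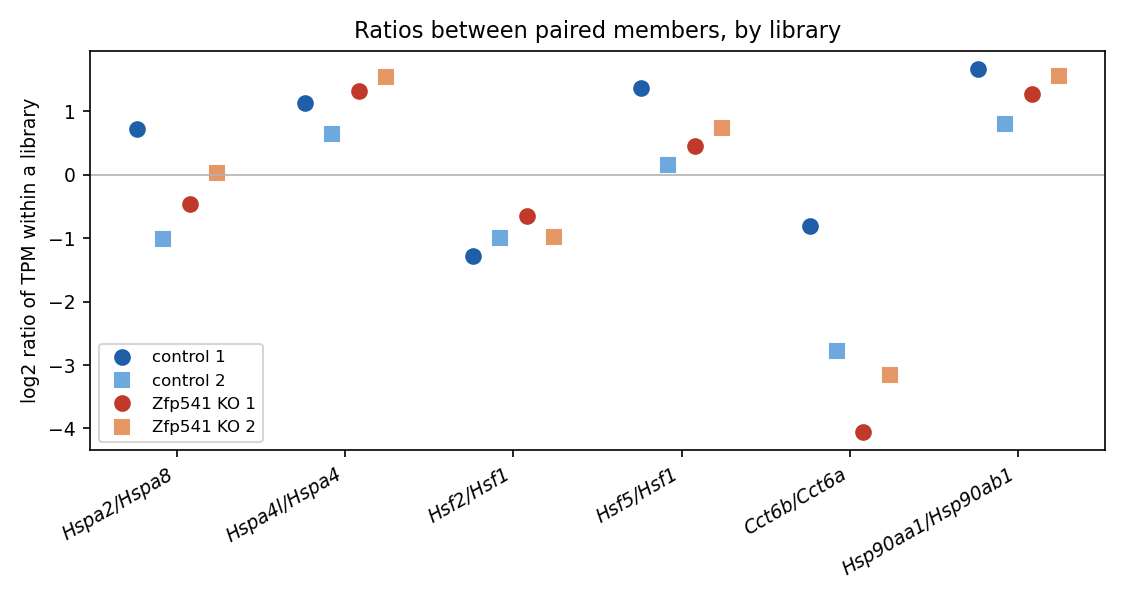
Log2 ratio of TPM within each library (y axis) for 6 of the 7 pairs (x axis), controls in blue and KO-labelled libraries in red and orange; the pair Hspa1l/Hspa8, near -8.4 in every group, is left out. The 2 controls are far apart for Hspa2/Hspa8, Hsf5/Hsf1 and Cct6b/Cct6a, and the groups do not overlap for Hspa4l/Hspa4, Hsf2/Hsf1 and Cct6b/Cct6a.

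Genes outside the naming rule that work with these chaperones were read from 2 lists. Of 43 co-chaperones, all tested, 14 lay above both controls (38.6% of all genes) and 10 below both (12.1% of all genes), with a median log2 fold change of 0.15, and none passed the FDR. Of 6 partners of HSPA2 and HSF2, 2 were above both controls, 2 below both and 2 overlapped, beside the same shares of all genes. *Shcbp1l*, which encodes a partner of HSPA2 in spermatocytes, stood at 469 and 184 TPM in the control libraries and at 58.6 and 82.0 TPM in the KO-labelled libraries, with a log2 fold change of -2.07 (SE 0.52, adjusted p = 0.310 from limma). *Bag6*, which stabilizes HSPA2, stood at 346 and 233 TPM in the control libraries and at 218 and 220 TPM in the KO-labelled libraries (log2 fold change -0.38, SE 0.26, adjusted p = 0.537 from limma). Both lay below both controls while *Hspa2* itself did not, and *Shcbp1l* also differed by -1.35 on the log2 scale between the controls. The partners *Sycp1* (log2 fold change 0.84) and *Hsf2bp* (0.14) lay above both controls. For *Cdk1* and *Ccnb1* the groups overlapped, so the partners did not share a direction.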

How the data were processed

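RNA of GFP-positive cells from 2 control and 2 *Zfp541* KO testes was read as single ends. Per the methods and the submitters' processing notes, adapters were removed with Trim Galore 0.5.0 (cutadapt 1.16), reads were mapped to mm10 with STAR 2.6.0a, and the authors deposited TPM per gene, estimated with RSEM 1.3.1. Depth is unknown, and reads shared between near-identical genes were divided by estimation. The library kit does not mark strand.

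Members and lists were chosen with earlier results of these data known. The 14512 genes averaging 1 TPM or more were fitted as log2(TPM + 1) by genotype in limma 3.58.1 (R 4.3.3) with a trended variance, and p-values were adjusted over all of them by the Benjamini-Hochberg method (FDR 0.05). Fold changes on this scale understate those of low genes. The fit was tested on simulated data. Named genes were the germ cell forms, heat shock factors and heat-inducible genes, the highest member of each class and the 8 largest differences each way among members whose groups do not overlap. Coordinates, exon overlap and shared stretches came from GENCODE on GRCm38. Alternatives covered the pseudocount, filter, scaling, variance model, replicate block, length and each library left out. Of the listed genes, 27 carry a date in place of a symbol and stayed unnamed.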

Additional observations from a re-analysis of the deposited data

How the results depend on the processing

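No gene and no member passed the FDR with a pseudocount of 0.1 or 5, without a filter, with either scaling, without the mean-variance trend, or with the length correction. TPM holds no depth, so counting error is not covered. The length correction and the crossed block were chosen after seeing the data. Where a sign or count depended on a setting, the cause was not tested.

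Leaving out a control leaves the spread to the KO-labelled pair, and the lone control is assumed to vary like it. Leaving out a KO-labelled library leaves the spread to the controls, which lie further apart for many members named above. Genes were called in both fits without a control and in neither fit without a KO-labelled library. Each library was left out in turn. Genes called higher then ranged from 0 to 5610 and lower from 0 to 1875, the largest numbers without control 1 and without control 2. Members called higher ranged from 0 to 23 (without control 1) and lower from 0 to 12 (without control 2). Members above every control kept ranged from 32 to 48 and below every control kept from 18 to 31 as each library was left out. The 48 above (without control 1) and the 31 below (without control 2) were counted against a lone control. Groups separate more easily when a group holds a lone library. These counts therefore cannot be set beside the 30 above and 16 below both controls with all libraries. Shares of all genes are not given for these fits.

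Libraries with the same replicate number had deviations from their group means with a correlation of -0.16 over genes, so the numbers do not pair the samples. A fit with the replicate block called 0 genes higher and 0 lower, with 0 and 0 members. It put 30 members above both controls (38.6% of all genes) and 16 below both (12.1% of all genes). No member moved, since a balanced block leaves the differences as they are. With the crossed replicate block, 7 genes were higher and 80 lower, and the 2 members called lower were *Hspb9* and *Dnajb3*.

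Median-ratio scaling put 13 members above (22.6% of all genes) and 29 below both controls (22.8% of all genes). It put the medians at -0.12 for all members, -0.069 for HSP70 and HSP110, 0.070 for HSP90, -0.11 for HSP60 and HSP10, 0.096 for class A, -0.35 for class B and -0.047 for class C J-domain genes, -0.50 for the chaperonin and 0.022 for heat shock factors. Quantile normalization gave medians of 0.072 for all members, 0.67 for HSP90, 0.22 for class A, 0.069 for class C, -0.049 for the chaperonin and 0.17 for heat shock factors. The length correction put 19 above both controls (24.5% of all genes) and gave medians of -0.022 for all members, 0.054 for HSP70 and HSP110, 0.17 for HSP90, 0.15 for class A, -0.33 for class B, 0.054 for class C, -0.30 for the chaperonin and 0.14 for heat shock factors. As each library was left out, the medians ranged from 0.15 to 0.46 for HSP70 and HSP110, 0.36 to 0.64 for HSP90, -0.93 to 0.24 for small heat shock proteins, 0.28 to 0.46 for class A, -0.37 to 0.21 for class B and -0.20 to -0.077 for the chaperonin.

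Log2 fold changes of some named genes turned sign. With median-ratio scaling *Dnaja2* was at -0.24, *Hsf5* at -0.13, *Hspa1b* at -0.038, *Hspa1l* at -0.17, *Hspa2* at -0.21 and *Hspa8* at -0.14. With quantile normalization *Dnajb6* was at 0.0067 and *Hspa1l* at -0.14, and with a pseudocount of 0.1 *Hspb8* at 0.0077. With the length correction *Dnaja2* was at -0.094, *Dnajb4* at -0.0097, *Hsf5* at -0.14, *Hspa1l* at -0.028, *Hspa2* at -0.0046, *Hspa4l* at -0.050 and *Hspa8* at -0.022. As each library was left out, *Dnajb4* ranged from -0.37 to 1.17, *Dnajb6* from -0.42 to 0.26, *Hsf5* from -0.29 to 0.69, *Hspa1l* from -0.057 to 0.25, *Hspa2* from -0.28 to 0.54, *Hspa8* from -0.25 to 0.65, *Hspb1* from -0.15 to 0.98, *Hspb8* from -1.11 to 0.94 and *Tcp1* from -0.41 to 0.080. The log2 differences of ratios ranged from -0.94 to 0.79 for *Hspa2* to *Hspa8*, -0.50 to 0.34 for *Hspa1l* to *Hspa8*, -0.76 to 0.45 for *Hsf5* to *Hsf1* and -0.25 to 0.62 for *Hsp90aa1* to *Hsp90ab1*.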
